A study of Mus musculus with 6 samples.

Results

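Circular RNAs (circRNAs) are closed RNA rings made when a splice donor is joined back to an acceptor upstream of it. The circRNAs described here come from Gabra2 and Gabrb2, the genes of the α2 and β2 subunits of the GABA-A receptor. They are the 5 rows, 2 for Gabra2 and 3 for Gabrb2, among 10652 circRNAs whose host identifiers include the Ensembl identifier of either gene. Both genes were picked because their circRNAs were listed in 1 group of libraries and not in the other, so their difference between groups is given as a description, with no test.

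The series measured circRNAs in hippocampus of male C57BL/6J mice, bought at 8 to 10 weeks of age, with 3 libraries in the chronic unpredictable stress (CUS) group and 3 in the Control group. The CUS mice met randomly ordered mild stressors, such as restraint, swimming in cold water and cage tilting, for 4 weeks. No transgene or drug is named for either group, and the labels do not say whether each library came from 1 mouse. Values given below for CUS or Control mice are values of libraries. The labels describe selection of RNA for poly(A) before library making, which cannot be checked from the values. A ring has no poly(A) tail, so under this protocol its recovery would rest on what the selection carries over.

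GABA-A receptors are chloride channels opened by GABA, the main inhibitory transmitter of the adult brain. Each is a ring of subunits, commonly α, β and γ subunits together. GABA binds between α and β subunits, and benzodiazepines bind between α and γ subunits. The α2 subunit is known in hippocampus from synapses on the axon initial segment of pyramidal cells and has been linked to the calming effect of benzodiazepines, while β2 is among the most widely expressed β subunits of the brain. Nothing here measures the linear mRNAs or the proteins of these genes.

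Gabra2 (ENSMUSG00000000560) lies at chromosome 5, 70957597 to 71095849, on the minus strand of GRCm38, and spans 138.3 kb. Gabrb2 (ENSMUSG00000007653) lies at chromosome 11, 42419757 to 42629028, on the plus strand, and spans 209.3 kb. For each gene the coding transcript with most exons has 10 exons. The positions are those of the genes, since the circRNA table was used without positions of the rings. Both Gabra2 circRNAs are classed as exonic. Gabrb2 has 2 exonic circRNAs and 1 intronic circRNA, a class that holds 470 of the 10652. Each of the 5 names a single host gene. Identifiers run in sequence along the genome, since for 99.8% of circRNAs with a host position the next identifier had a host on the same chromosome, and those of each gene here are consecutive. Whether rings of 1 gene share exons is not known from the table.

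A level is 10 to the deposited value and has no stated unit. Within a library all levels under 300 steps were whole multiples of a step of that library, within 0.05 of a step, and the lowest listed level was 17 steps in each library. A circRNA without a value is listed at 0, and 0 is not shown to mean absence. The number of reads behind a level is unknown, so no counting interval is given. Levels of different genes are not ranked, because the lengths of the rings were not used here.

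Gabra2 circRNAs were listed at 0 in all 3 CUS libraries and were found in all 3 Control libraries. mmu_circRNA008108 was at 0, 0 and 0 in CUS replicates 1 to 3, against 89.3, 593 and 317 in Control replicates 1 to 3. mmu_circRNA008107 was at 0 in all CUS libraries, against 1419, 0 and 186 in Control. The share of each ring differed among the Control libraries: mmu_circRNA008107 made up 94.1% of the Gabra2 sum in Control replicate 1, none of it in replicate 2 and 37.0% in replicate 3. Their sum was 0 in each CUS library, against 1509, 593 and 503 in Control. The highest Control sum was 3.00 times the lowest, and the lowest was 10.99 times as high as the lowest level listed in any CUS library. That CUS level, 45.7, is of a single circRNA and not of a sum. The lowest level above 0 of a single Gabra2 ring was 89.3, in Control replicate 1.

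Gabrb2 circRNAs showed the opposite pattern. The sum of the 3 rings was at 737, 646 and 215 in CUS replicates 1 to 3, against 0, 0 and 0 in Control. No ring was found in all CUS libraries. The intronic mmu_circRNA001556 was at 646 in CUS replicate 2 and at 0 in the other 5 libraries, so the Gabrb2 sum of that library was wholly intronic. mmu_circRNA001557 was at 336, 0 and 215 in CUS and supplied the whole sum of CUS replicate 3. mmu_circRNA001558 was at 401, 0 and 0 in CUS and made up 54.4% of the sum of CUS replicate 1. A Gabrb2 signal in all 3 CUS libraries therefore exists for the host sum and for none of its rings. The highest CUS sum was 3.43 times the lowest, and the lowest was 5.23 times as high as the lowest level listed in any Control library.

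**Figure D1:**
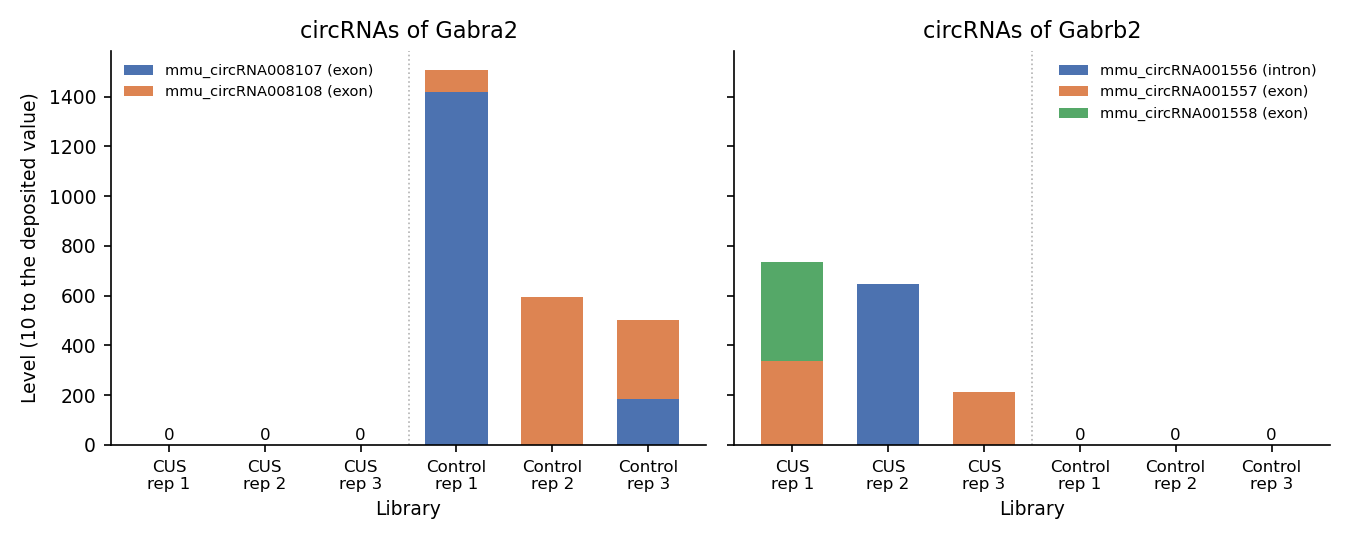
Levels of the Gabra2 circRNAs (left) and the Gabrb2 circRNAs (right) in each library, as bars stacked by circRNA, with 0 written where none was listed. Gabra2 sums of 503 to 1509 appear in Control only and Gabrb2 sums of 215 to 737 in CUS only, and the ring that supplies the sum differs between libraries of 1 group.

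Of the 5 circRNAs, 2 were above 0 in 1 library, 2 in 2 libraries and 1 in 3 libraries. Of all circRNAs, 36.9% were above 0 in 1 library and 7.55% in all 6. Across many features only circRNAs or hosts above 0 in at least 3 of the 6 libraries were tested. None of 3896 circRNAs and none of 2227 hosts had a limma adjusted p under 0.05 (0% of each), and 234 circRNAs and 127 hosts had an unadjusted p under 0.05. Just mmu_circRNA008108 of the 5 passed the filter, and it passed through Control alone. Both host sums passed through the group in which they were found.

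The same split between groups was counted over all 2227 hosts tested. Sums were listed at 0 in all CUS libraries and above 0 in all Control libraries for 31 hosts (1.39%), one of which is Gabra2. They were above 0 in all CUS libraries and at 0 in all Control libraries for 25 hosts (1.12%), one of which is Gabrb2. Among 3896 circRNAs tested, 94 (2.41%) had the first pattern, mmu_circRNA008108 among them, and 73 (1.87%) had the second. The members were picked for this pattern, so these shares only place them.

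How often a host at the level of Gabra2 or Gabrb2 was missing from a further library was then measured. Of hosts with a CUS sum between 400 and 800, the range of Gabrb2 in CUS replicates 1 and 2, 36.7% were listed at 0 in a given Control library and 38.0% in another CUS library, as means over pairs of libraries. From a sum between 200 and 400, that of Gabrb2 in CUS replicate 3, the shares were 38.6% and 42.1%. Starting from Control sums between 400 and 800, that of Gabra2 in Control replicates 2 and 3, 38.4% of hosts were at 0 in a CUS library and 35.6% in another Control library. Between 800 and 1600, the range of Gabra2 in Control replicate 1, these were 16.0% and 13.3%. In all 4 cases the range over pairs within a group overlapped the range over pairs across groups. From Control sums between 400 and 800, for example, it was 35.7% to 41.3% into CUS and 33.4% to 37.8% into Control. The mean share was nevertheless higher in all 4 cases when the second library was a CUS library. Pairs share libraries, so the overlap does not show that the shares are equal.

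Hosts found steadily in 1 group were rarely missing from all of the other. Of 532 hosts with a sum of at least 503 in every Control library, 499 were above 0 in all CUS libraries, 25 were at 0 in 1 of them, 6 in 2, and 2 in all 3. Gabra2 is one of these 2, or 0.376%. For Gabrb2, 880 hosts had a sum of at least 215 in every CUS library, and 8 of them (0.909%) were at 0 in all Control libraries. The limits of 503 and 215 are the members' own lowest sums, so these counts are a description. The limits have no upper bound, so hosts with sums far above those of the members are counted too. Such hosts were seldom at 0. From Control sums over 1600, 1.70% of hosts were at 0 in a CUS library, as a mean over pairs. From CUS sums over 1600, 2.08% were at 0 in a Control library. The counts therefore do not show how rare the split is at the members' levels.

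**Figure D2:**
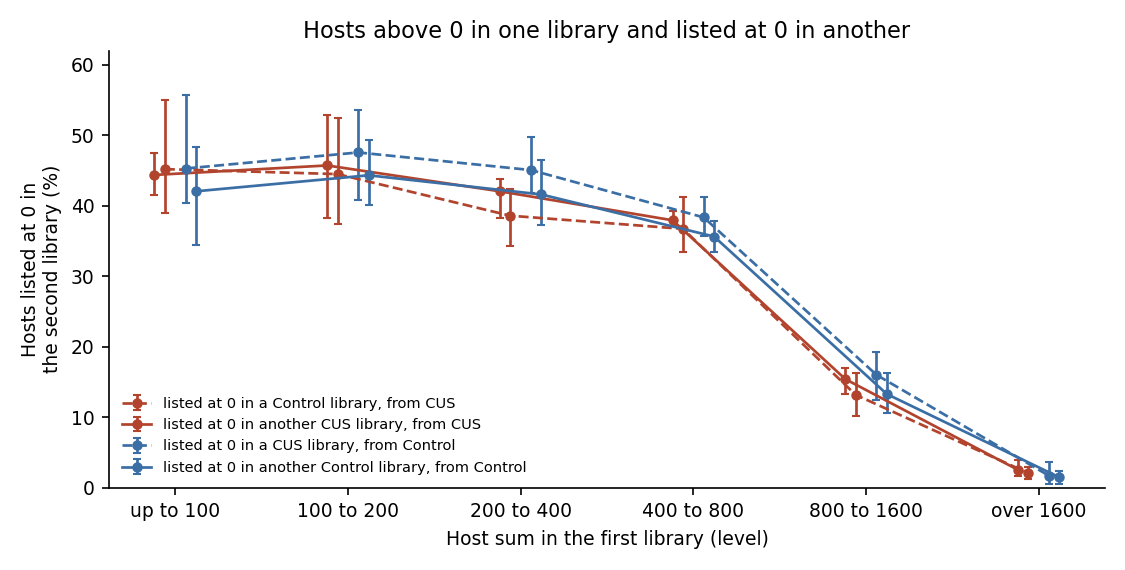
Percent of hosts listed at 0 in a second library (vertical axis) by their sum in a first library (horizontal axis), as the mean over pairs of libraries with the lowest and highest pair as bars. Solid lines join libraries of the same group and dashed lines libraries of different groups, and they run close together at 35.6% to 38.4% for sums of 400 to 800.

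The libraries as a whole differed between groups in some measures and overlapped in others. The CUS libraries held 3991 to 4273 circRNAs above 0, and the Control libraries 4329 to 4606, without overlap. Hosts above 0 numbered 2036 to 2137 in CUS libraries and 2114 to 2237 in Control libraries, and levels summed to 1990255 to 2034494 in CUS and 2028329 to 2050720 in Control, both with overlap. The step was 2.69 to 2.95 in CUS libraries and 2.41 to 2.66 in Control libraries, and what a step stands for is not known. If a step were the same number of reads in each library, its inverse would be a relative depth, at 81.9% to 89.8% of the highest library in CUS and 90.8% to 100% in Control. The part of these differences in the Gabra2 and Gabrb2 values was not tested. Of the hosts found in either of 2 libraries, 51.7% to 54.3% were found in both for pairs of a CUS and a Control library, and 52.4% to 55.7% for pairs of the same group.

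The hosts with sums nearest to those of Gabra2 and Gabrb2 were named by Euclidean distance over the 6 libraries, on the scale of log2(sum + 45.5). Hosts picked in this way share the members' split between groups, or nearly so, by choice, and their values are a description. Nearest to Gabra2 were Arhgap35, Alg9, Rgs22, Srrm2 and Slc45a4, at distances of 1.44 to 1.95. Alg9, a glycosyltransferase gene of the endoplasmic reticulum, was at 0 in all CUS libraries, against 826, 524 and 1213 in Control mice. Arhgap35, a GTPase-activating protein gene, was at 0 in all CUS libraries, against 613, 343 and 575 in Control mice. Nearest to Gabrb2 were Dicer1, Mthfd1, Ccdc66, Adarb1 and Uggt1, at distances of 0.39 to 1.09. Dicer1, which encodes the enzyme that cuts microRNA precursors, was at 601, 549 and 247 in CUS mice, against 0 in all Control libraries. Adarb1, an RNA-editing enzyme gene, was at 483, 532 and 315 in CUS mice and at 0 in all Control libraries. None of the 10 lies on chromosome 5 or 11, and none is a GABA-A subunit gene.

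Of 19 GABA-A subunit genes 8 had a circRNA, 17 circRNAs in all, of which 12 belong to genes other than Gabra2 and Gabrb2. Of those 12, 5 were above 0 in 1 library, 4 in 2 and none in all 6. The 8 genes with a circRNA were 88.6 to 670.7 kb long (median 216.75 kb), and the 11 without one 13.1 to 102.4 kb (median 31.1 kb). Gabra5, Gabra6, Gabrg1 and Gabrd had none.

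Among α subunits, Gabra4, found in dentate granule cells, was at 271, 129 and 0 in CUS mice and at 0, 381 and 737 in Control mice. Gabra3 was at 0, 0 and 201 in CUS mice and at 0, 600.07 and 0 in Control mice. Both overlapped between groups. Of the β subunits, Gabrb1 was at 127, 0 and 351 in CUS mice and at 162, 98.3 and 0 in Control mice. Of the γ subunits, which carry the benzodiazepine site with an α subunit, Gabrg3 was at 0, 167 and 0 in CUS mice and at 77.3, 0 and 0 in Control mice. Groups overlapped for these 4 genes. Gabra3 and Gabrg3 were above 0 in 2 libraries each, too few for the groups to be apart, so their overlap was fixed in advance. Neither is among the 2227 hosts tested, of which 254 (11.4%) had groups that did not overlap. Gabra4 and Gabrb1 were above 0 in enough libraries to be tested, and neither passed limma's adjusted threshold of 0.05. The log2 difference was -0.86 with SE 1.52 for Gabra4 (limma adjusted p = 0.925) and 0.40 with SE 1.28 for Gabrb1 (limma adjusted p = 0.964).

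**Figure D3:**
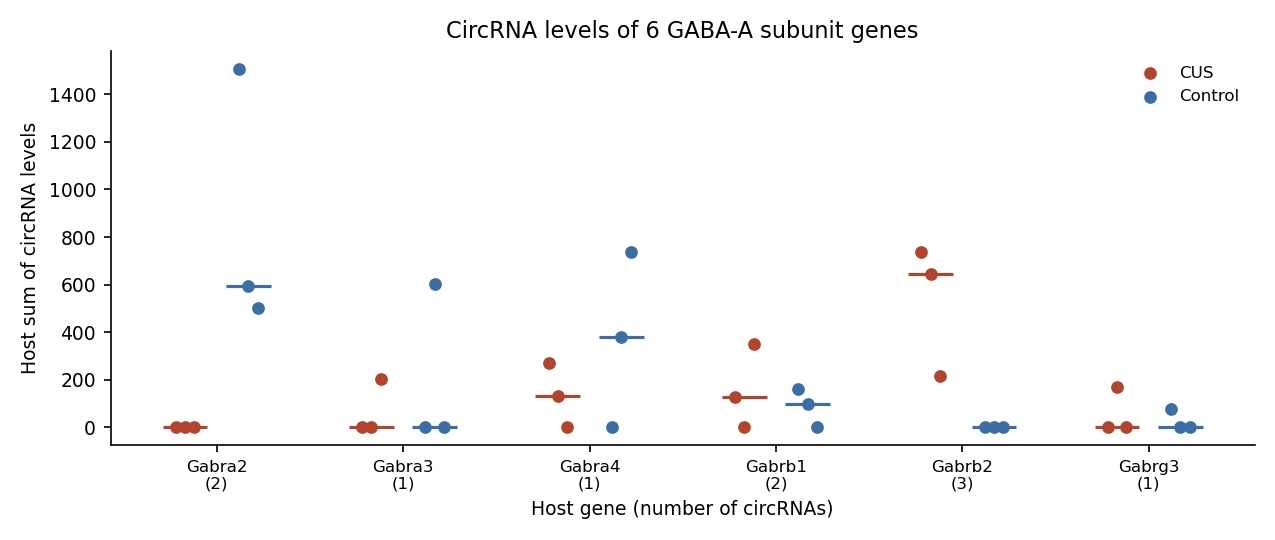
Host sums of circRNA levels for 6 GABA-A subunit genes with a circRNA, with 1 point per library, CUS left of Control, a line at each group's median and the number of circRNAs in brackets. Gabra2 and Gabrb2, picked for this, are the genes plotted whose groups do not overlap, while the other 4 have points of both groups in the same range. Of those 4, Gabra3 and Gabrg3 were above 0 in 2 libraries each, too few for the groups to be apart.

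Subunit genes sit in clusters, which allows a look at the neighbours of Gabra2. On chromosome 5 the circRNAs of Gabra4 and Gabrb1 summed to 398, 129 and 351 in CUS mice and to 162, 479 and 737 in Control mice, and Gabrg1 had none. The groups overlapped.

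The rest of the GABA system was followed through lists of other receptors, postsynaptic partners, trafficking proteins, regulating enzymes, GABA metabolism and the chloride gradient. Apart from Gabra2 and Gabrb2 the lists held 103 genes, of which 55 had a circRNA and 35 were tested. None of the 35 passed limma's adjusted threshold, and their lowest adjusted p was 0.737. An unadjusted p under 0.05 was reached by 4 of them, 2 in each direction, and over all hosts by 57 with a higher (2.56%) and 70 with a lower (3.14%) value in CUS. The median log2 difference was 0.08 over the 35 and -0.06 over all hosts tested.

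GABA-B receptors are the G protein-coupled receptors of GABA. Gabbr1 was at 846, 312 and 1204 in CUS mice, against 0, 595 and 319 in Control mice. Gabbr2 was at 0, 69.9 and 405 in CUS mice and at 77.3, 610.1 and 0 in Control mice. Their potassium channel effector Kcnj6 was at 672 in CUS replicate 1 and at 0 elsewhere. Of the glycine receptor genes, relatives of the GABA-A subunits, Glra2 alone had a circRNA, found in 2 libraries.

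In the lists of proteins around the receptor, values lay on both sides. Gphn, which encodes gephyrin, the scaffold under GABA-A receptors, was at 1775, 1361 and 1465 in CUS mice, against 734, 1124 and 199 in Control mice. The groups did not overlap, as was so for 254 of all 2227 hosts tested (11.4%). For Gphn the log2 difference was 1.37 with SE 0.70 (limma adjusted p = 0.918). Magi2, a scaffold gene of excitatory and inhibitory synapses, was at 2871, 2138 and 1582 in CUS mice, against 5301, 5507 and 3298 in Control mice, without overlap (log2 difference -1.09, SE 0.40, limma adjusted p = 0.737). Of the 10 postsynaptic hosts tested 5 were fitted higher in CUS and 5 lower. Plcl2, whose product belongs to a family that binds GABA-A β subunits, was at 6755, 6425 and 3148 in CUS from a single ring, against 3019.95, 2282 and 3072 in Control mice (log2 difference 0.89, SE 0.38, limma adjusted p = 0.737). Of the 7 trafficking hosts tested 5 were fitted higher and 2 lower. Prkce, which encodes the epsilon form of protein kinase C, had levels of 5132.5, 2566 and 2286 in CUS mice, against 4531, 5918 and 6766 in Control mice, overlapping through CUS replicate 1 (log2 difference -0.85, SE 0.37, limma adjusted p = 0.737). Of the 8 kinase and phosphatase hosts 2 were fitted higher and 6 lower.

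Genes of GABA synthesis and transport gave almost no circRNAs: Abat was at 177, 0 and 334 in CUS mice and at 0 in Control mice, and Slc6a11 was found in Control replicate 2 alone. Gad1, Gad2 and Slc32a1 had none. In the chloride gradient list, which bears on the direction of current through the receptor, the fitted value was higher in CUS for all 4 tested hosts, as it was for 1065 of all 2227 hosts, with 1162 lower. The list itself was not tested, and its values include Stk39 at 0.17 with SE 0.69 on the log2 scale. Wnk3, the host of this list that the filter left out, went the other way. It was at 0 in all CUS libraries and at 794 in Control replicate 2 alone. Oxsr1 is a kinase gene of the pathway that regulates chloride cotransporters. It was at 1173, 1872 and 690.4 in CUS mice, against 0, 308 and 319 in Control mice, without overlap. Its log2 difference was 2.73 with SE 1.10 (limma adjusted p = 0.737). Groups did not overlap for Plcl2 and Wnk1 either, and over all 2227 hosts tested this held for 254 (11.4%). Further hosts of highest level in these lists, Ptprd, Nbea, Nsf, Ppp3ca, Prkcb, Stk39 and Wnk2, had log2 differences from -0.76 for Prkcb to 1.00 for Wnk2 (limma adjusted p = 0.918 to 0.988).

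**Figure D4:**
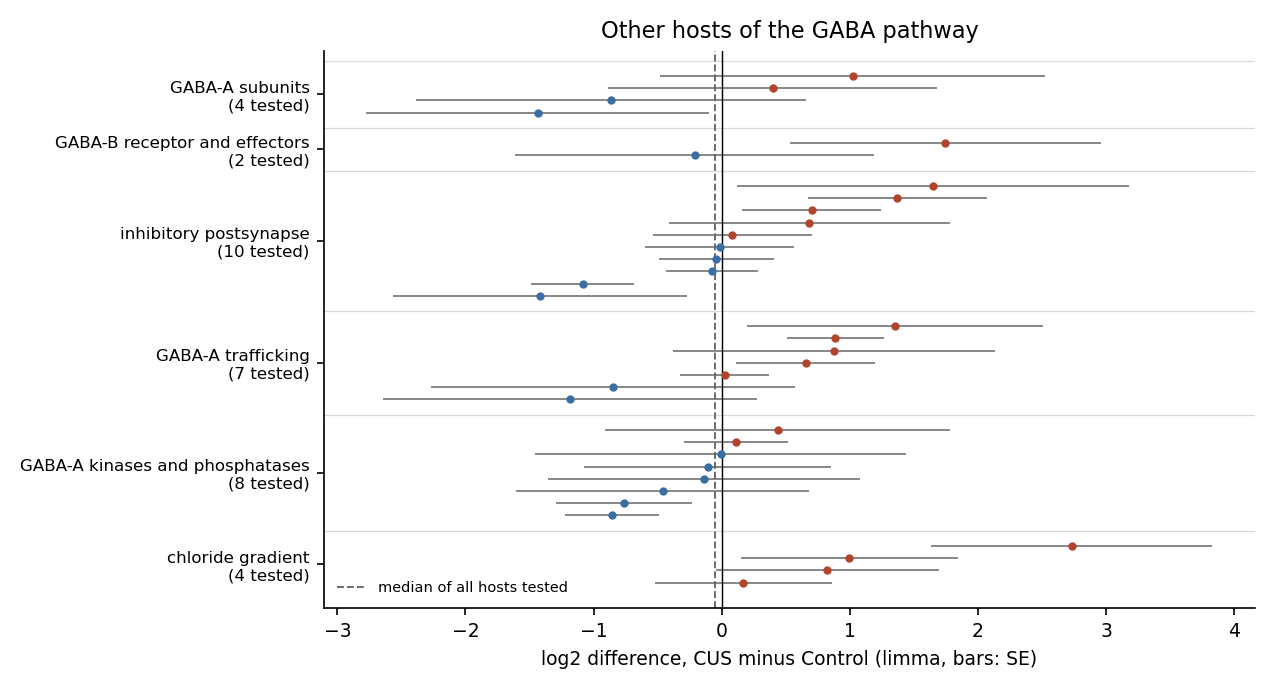
Log2 difference of host sums, CUS minus Control, with its SE, for the 35 tested hosts of the GABA lists without Gabra2 and Gabrb2, grouped by list. The 4 chloride gradient hosts have fitted values right of 0, 2 of them by less than their SE, and none of the 35 passed the adjusted threshold.

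CircRNAs of cell type marker genes were summed by list. No marker host passed limma's adjusted threshold in any list. A limma unadjusted p under 0.05 was reached by 1 host in each direction among interneuron (4 tested) and among CA pyramidal markers (3 tested). Among dentate granule markers (7 tested) it was reached by 1 higher host. Over all 2227 hosts tested the shares were 2.56% higher and 3.14% lower. In bulk tissue, fewer cells of a type and less circRNA per cell cannot be told apart. CA pyramidal markers, 3 of 11 with a circRNA, summed to 2751 to 3210.2 in CUS mice and 3942 to 7006 in Control mice. That sum was mostly Tenm3, at 2084 to 2676 in CUS mice and 3926 to 6936 in Control mice (log2 difference -1.03, SE 0.39, limma adjusted p = 0.737). The other two had higher fitted values in CUS. Cpne4 was at 144, 272 and 381 in CUS mice and at 0 in Control mice (limma adjusted p = 0.737). Grik4 averaged 414 ± 307 in CUS and 88.6 ± 99.8 in Control (SD, n = 3 libraries each), with limma adjusted p = 0.918. The median log2 difference of the 3 was 1.71, opposite in sign to the difference of the sum. Interneuron markers, 5 of 15 with a circRNA, overlapped at 2813 to 8405 in CUS mice and 3134 to 5050.3 in Control mice, and Sst, Pvalb and Vip had none. Dentate granule markers, 8 of 11, overlapped as well, at 6713 to 10312 in CUS mice and 5446 to 10821 in Control mice. Astrocyte markers, 4 of 10, summed to 1709.7 to 2642 in CUS mice and 1085 to 1525 in Control mice, without Gfap, Aqp4 or Gja1. Of these 4 hosts, 3 were fitted higher in CUS and 1 lower. The lower one was Gpc5, at 348, 296 and 179 in CUS mice, against 377, 1056 and 801 in Control mice. Oligodendrocyte lineage markers, 5 of 13, summed to 2039 to 2989 in CUS mice and 1374 to 2040.2 in Control mice, with overlap. Microglial markers had no circRNA. The part of cell makeup in the Gabra2 and Gabrb2 values was not tested.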

How the data were processed

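RNA was poly(A)-selected and sequenced from both ends in stranded libraries that carried molecular identifiers, per the labels' protocols. The authors deposited 1 table with a log10 value per circRNA and library, read here as log10 from its values because the header names no unit. The submitters' processing notes name the mm9 build, DESeq, StringTie and edgeR and give no role for them. The caller of the circRNAs is not named in them. Host identifiers were matched to GENCODE vM21 (GRCm38), where 4467 of 4483 were found. Of 786 circRNAs with several hosts, 583 were counted for the single protein-coding gene they list and 203 for none. Levels were summed over 9791 circRNAs of 3772 hosts. CUS was tested against Control by limma 3.58.1, run in R 4.3.3 (moderated with a variance trend) on log2(level + 45.5), the added value being the median over libraries of the lowest listed level, with Benjamini-Hochberg adjustment and a threshold of 0.05. The code was tested on simulated levels modelled on hosts above 0 in every library, so features often listed at 0 were not covered. Fold changes on this scale understate the change of low features. The p-values reflect only the spread between these samples, which may be technical. Named genes were all circRNAs of both members, all other subunit hosts, the 3 highest hosts and the 2 of smallest p in each list, and the 5 nearest hosts to each member, some of which are not reported here. Tenm3, Cpne4 and Grik4 are the CA pyramidal markers with a circRNA and were named after their values were seen. The members and lists were chosen with earlier results of these data known. Alternatives covered the pseudocount, filter, trend, normalization, host assignment, replicate block and each library left out. Figures were drawn with Python 3.11.15 and matplotlib 3.10.9.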

Additional observations from a re-analysis of the deposited data

How the results depend on the processing

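No circRNA, host or GABA list host passed the adjusted threshold in any alternative run for it, leaving out each library included. With limma's unadjusted p under 0.05 the GABA lists had 4 hosts, 1 without a variance trend and 1 to 4 with a library left out. The log2 differences of the members depend on the pseudocount, because 1 group is at 0, and are no measure of size. They were -4.17 for Gabra2 and 3.52 for Gabrb2, -6.41 and 5.72 with 0.2 times the pseudocount, and -2.16 and 1.66 with 5 times it. Leaving out 1 library gave -4.45 to -3.70 for Gabra2 and 3.22 to 4.02 for Gabrb2. Leaving out a library of the group at 0 could not move the value, which stayed at -4.17 or 3.52. The sign could not change in any of these runs, because the members were picked with 1 group at 0. The range is therefore no sign of stability. Hosts split fully between groups numbered 56, or 61 with every listed host identifier counted. The titles number replicates 1 to 3 in both groups, but same-numbered libraries did not deviate together (correlation of deviations over hosts -0.08 to -0.03), so the numbers were not taken as pairs. With the replicate block limma called 0 hosts, as without it, with 126 against 127 at an unadjusted p under 0.05. The members' differences stayed at -4.17 and 3.52. This was fixed in advance, because each block holds 1 library of each group.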

Other observations

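Of 18 ionotropic glutamate receptor genes, the excitatory counterpart, 14 had a circRNA, against 8 of 19 GABA-A subunit genes, and this difference was not tested. Of the 12 that were tested, 7 were fitted higher in CUS and 5 lower, with none past limma's adjusted threshold and 1 at an unadjusted p under 0.05. Grin2b, the GluN2B subunit gene, was at 5177, 4397 and 3221 in CUS mice, against 3264, 1044 and 1676 in Control mice (log2 difference 1.20, SE 0.44, limma adjusted p = 0.737). The kainate receptor gene Grik2 was at 3539 ± 1635 in CUS mice and 4863 ± 2294 in Control mice (SD, n = 3 each), and Grin2a at 1804, 2146 and 1449 in CUS mice, against 2006, 1941 and 4471 in Control mice. The list summed to 16919 to 17950.1 in CUS mice and 14845 to 18113 in Control mice.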
